A study of Homo sapiens with 6 samples.

Results

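Regions of RNA listed as bound in a single HSPA1A replicate, and in no other peak list of the series, are described here. The peaks of 4 lists were pooled, and peaks sharing at least 1 bp on the same strand were merged into 4136 regions. A region was kept where all its peaks came from 1 list and that list was HSPA1A replicate 1 or HSPA1A replicate 2. This gave 906 regions for replicate 1, which is 21.9% of all merged regions, and 416 for replicate 2, which is 10.1%. The members were therefore chosen by the absence of a peak in the other lists, and that absence and their numbers are a description of the rule. Each of the 1322 members is a lone peak, and the 2 HSPA1A lists are reported apart throughout.

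The lists come from FLASH-seq, a method that crosslinks RNA to protein with UV-C light, purifies a tagged protein by tandem affinity and sequences the RNA fragments that stay attached. The cells were HEK293 Flp-In T-Rex, an established line of human embryonic kidney origin that carries the bait gene at a defined genomic site under tetracycline control. The series holds 6 libraries: GFP, HSPA1A and HSPA8, each with a 3xFLAG-HBH tag, each induced with 1 µg/ml tetracycline and each in 2 biological replicates. Tag, induction and crosslinking are thus common to all 3 baits, and the tagged baits are expressed in addition to the cells' own proteins. The labels say that the authors took the second replicate only to find peaks in common with the first, so single-list regions are among those such a filter would leave out. GFP peaks were not analysed here, so the values stand without a control bait.

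HSP70 proteins are chaperones that bind exposed hydrophobic stretches of unfolded proteins and release them in a cycle driven by ATP. HSPA1A is the form induced by heat and other stress, and HSPA8 is the constitutive form. RNA polymerase III, whose products the series title links to HSP70, makes tRNAs, 5S rRNA, U6, 7SK, 7SL, snaR and other short RNAs.

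The RefSeq tables used here hold 300 bases around each annotated gene start and the miRNA hairpins, and few members lie in them. Of the replicate 1 members 7 lay wholly and 4 partly in a start window, against 1 wholly for replicate 2. Sequences are from RefSeq on GRCh38, 5′ to 3′ on the strand of the region, with the region in capitals and up to 15 flanking bases in lower case. The first 3 are shown because they show which part of a tRNA gene a replicate 1 member covers.

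TRN-GTT6-1: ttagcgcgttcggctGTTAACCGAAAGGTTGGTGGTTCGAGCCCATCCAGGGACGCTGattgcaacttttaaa
TRQ-CTG7-1: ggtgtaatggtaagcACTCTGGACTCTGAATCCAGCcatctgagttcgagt
TRG-CCC2-1: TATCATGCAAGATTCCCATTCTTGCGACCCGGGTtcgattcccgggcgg

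The asparagine tRNA region (chr1:143735917-143735959, minus strand, score 9) runs from the anticodon to just past the 3′ end of the gene. The glutamine tRNA region (chr1:148328835-148328855, plus strand, score 7) covers the anticodon arm, and the glycine tRNA region (chr2:70249010-70249051, minus strand, score 6), of which 34 of 42 bases lie in a start window, ends inside the T arm. The motif GTTCGANNC is the core of the T arm and of the B box that Pol III transcription factors bind inside the gene. It was searched on the printed strand of these stretches and on both strands of the start windows. It was found in the printed stretch of TRN-GTT6-1 and of TRG-CCC2-1, and in 291 of 35116 start windows (0.829%). The stretches were picked as tRNA genes, so the share of windows is background only. The printed stretch of TRQ-CTG7-1 ends in GTTCGAGT, before the last base of the motif, so it cannot show whether the motif is present there.

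The next pair, 1 from each list, is shown because both regions consist largely of a run of cytosines. They were picked after their sequences had been seen.

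JRKL-AS1 start: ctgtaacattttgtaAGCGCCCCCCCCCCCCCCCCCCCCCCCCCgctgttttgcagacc
ATXN2L start: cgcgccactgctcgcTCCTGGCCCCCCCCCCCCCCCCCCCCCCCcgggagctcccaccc

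The first lies in replicate 1, upstream of the JRKL-AS1 start and on the opposite strand (chr11:96506996-96507024, plus strand, score 11), and holds 25 consecutive cytosines. The second lies in replicate 2, upstream of the ATXN2L start in the non-coding gene LOC124903672 (chr16:28822930-28822958, plus strand, score 5), and holds 23. Runs of at least 15 cytosines on either strand occur in 35 of the 35116 start windows (0.0997%).

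Members also met 3 miRNA hairpins, named here because RefSeq gives their sequence. The hairpins are shown in capitals where the region lies, and each mature miRNA on its own line with the seed, bases 2 to 8, in capitals.

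MIR19B1: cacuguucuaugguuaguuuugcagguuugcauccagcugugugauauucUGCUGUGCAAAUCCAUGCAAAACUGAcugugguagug
hsa-miR-19b-3p: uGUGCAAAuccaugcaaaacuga
MIR1246: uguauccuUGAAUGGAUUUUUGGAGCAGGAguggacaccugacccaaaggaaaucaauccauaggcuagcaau
hsa-miR-1246: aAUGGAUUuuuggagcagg
MIR1248: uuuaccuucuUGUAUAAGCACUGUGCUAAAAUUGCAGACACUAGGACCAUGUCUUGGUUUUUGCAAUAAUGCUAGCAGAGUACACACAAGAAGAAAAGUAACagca
hsa-miR-1248: aCCUUCUUguauaagcacugugcuaaa

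The replicate 1 region on MIR19B1 (chr13:91351242-91351267, plus strand, score 5) covers all 23 bases of the 3p arm and none of the 5p arm. MIR1246 carried a replicate 2 region (chr2:176601023-176601044, minus strand, score 6) that covers all 19 bases of its mature form. The MIR1248 hairpin overlaps the H/ACA snoRNA gene SNORA81, whose replicate 1 region (chr3:186786682-186786773, plus strand, score 16) covers 92 of 106 hairpin bases and 20 of the 27 bases of the mature form. The 3 seeds differ from one another.

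The members were a larger part of the first list than of the second. The replicate 1 list held 2744 peaks in 2404 regions, 37.7% of them in no other list, and the replicate 2 list held 2059 peaks in 1591 regions, 26.1% of them in no other list. For comparison, the HSPA8 lists held 1144 such regions of 2488 in replicate 1 (46.0%) and 38 of 952 in replicate 2 (3.99%). Regions of all 4 lists numbered 648, those of both HSPA1A lists alone 96, and those of HSPA1A replicate 1 with HSPA8 replicate 1 alone 385. The order of the 2 HSPA1A lists turned with the 1423 highest-scoring peaks of each list, which changes both length and scores: 116 regions were in replicate 1 alone and 151 in replicate 2 alone.

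Members had low scores. Every peak has a whole-number score from the authors, whose meaning is not stated. Where the lists are set side by side by score, equal scores are not known to mean the same in both. In replicate 1 the members ranged from 1 to 16 with a median of 5, and 506 of 906 (55.8%) had the score 5 itself. In replicate 2 they ranged from 1 to 24 with a median of 6, and 145 of 416 (34.9%) had the score 5. Shared regions held peaks with medians of 22 and 19 and highest scores of 4622 and 6560. No replicate 1 member scored above 16, and 14 replicate 2 members did. The score was not part of the rule, but both come from the same lists, so the gap is given without a test.

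**Figure D1:**
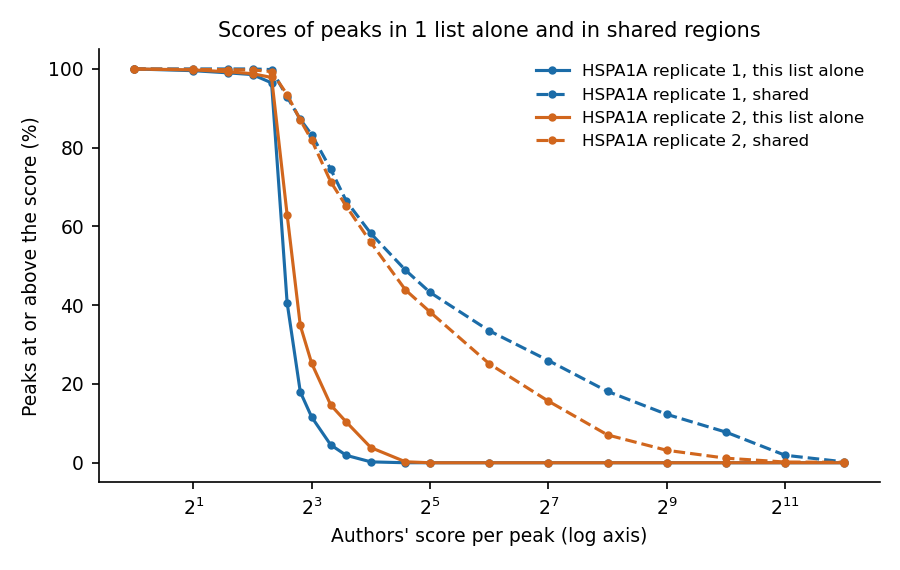
Share of peaks (y axis, %) at or above each of the authors' scores (x axis, log scale) for HSPA1A replicate 1 (blue) and replicate 2 (orange), with single-list regions as solid and shared regions as dashed lines. The solid lines drop just past the score 5, and the shared medians are 22 and 19.

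The widths of the members differed between the lists. Median width was 43 bp in replicate 1 and 41 bp in replicate 2, close to the 50 and 45 bp of peaks in shared regions. Widths of 38 to 50 bp made up 60.8% of the replicate 2 members and 17.3% of the replicate 1 members. In replicate 1 the commonest widths were 24 bp with 70 regions, 75 bp with 66 and 59 bp with 54. In replicate 2 they were 40 and 46 bp with 37 regions each. Regions wider than 59 bp numbered 222 in replicate 1 and 4 in replicate 2.

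Most members lay on protein-coding genes, between genes or on non-coding genes other than the abundant small RNAs. Each region was assigned by any overlap, ignoring strand, to a gene class of the RefSeq table. Protein-coding genes took 390 of 906 replicate 1 members (43.0%, 95% Wilson interval 39.9 to 46.3%) and 152 of 416 replicate 2 members (36.5%, 32.1 to 41.3%), against 12.6% and 13.8% of the shared regions. Intergenic regions were 18.5% of replicate 1 members (16.1 to 21.2%) and 40.1% of replicate 2 members (35.5 to 44.9%), against 14.4% and 15.8% of shared regions. Other non-coding genes, which here include pseudogenes, took 29.2% and 20.9%, against 40.6% and 34.0%. The Pol III class took 35 replicate 1 members (3.86%) and 8 replicate 2 members (1.92%), against 13.2% and 16.3% of shared regions. All intervals cover counting error over regions only, and regions on 1 transcript or on copies of 1 gene are not independent.

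Set against the shared regions of the same list, the protein-coding share was higher by 26.6 ± 5.48 percentage points (SD, n = 2 lists) and the intergenic share by 14.3 ± 14.2 points. The other non-coding share was lower, with a difference of -12.2 ± 1.27 points, and so was the Pol III share, with -11.8 ± 3.57 points. The intergenic difference was 24.3 points in replicate 2 and 4.19 points in replicate 1. The snoRNA share was the one class whose difference had opposite signs in the 2 lists, 0.664 points in replicate 1 and -1.80 points in replicate 2.

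**Figure D2:**
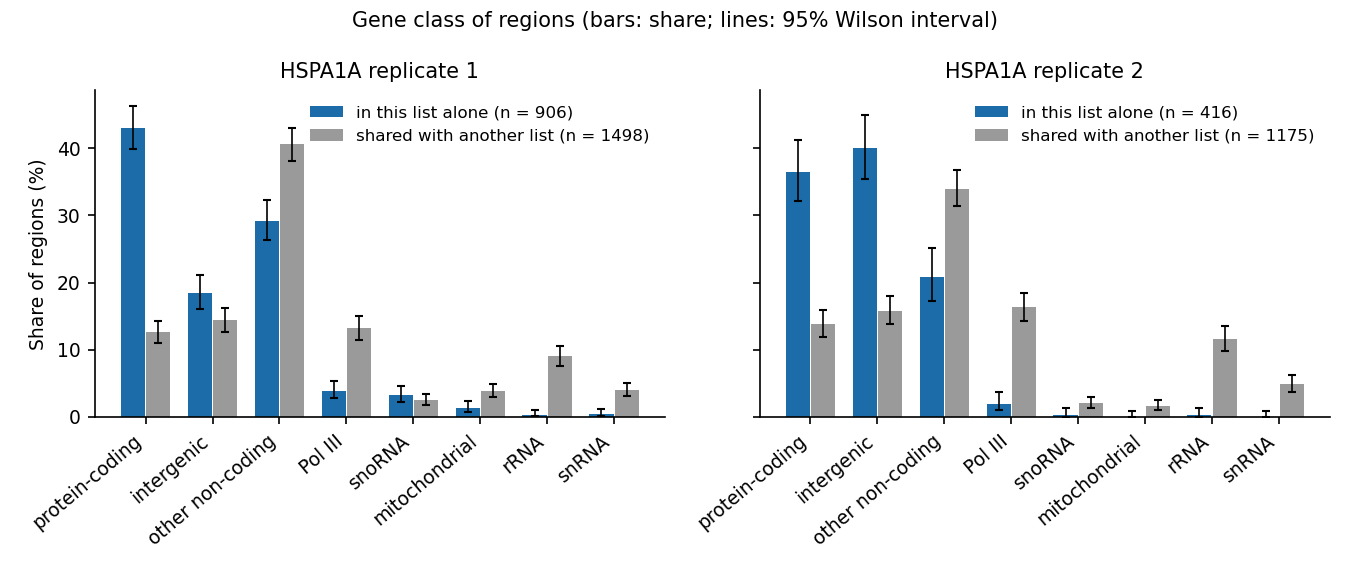
Share of regions (y axis, %) in each gene class (x axis) for HSPA1A replicate 1 (left) and replicate 2 (right), with single-list regions in blue, shared regions in grey and 95% Wilson intervals as lines. Protein-coding genes hold 43.0% and 36.5% of the single-list regions, and the intergenic bar of replicate 2 reaches 40.1%.

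The same shares among regions of a single HSPA8 list are given for comparison. Protein-coding genes held 39.8 ± 4.60% of the single-list regions of HSPA1A and 36.7 ± 29.6% of those of HSPA8 (SD, n = 2 lists each), a difference of 3.05 points (exact permutation test, two-sided, p = 1). For intergenic regions the means were 29.3 ± 15.3% and 8.53 ± 8.34%, a difference of 20.8 points (exact permutation test, p = 0.333). The differences were 6.13 points for other non-coding genes (exact permutation test, p = 0.667) and 1.54 points for the Pol III class (exact permutation test, p = 0.667). With 2 lists a bait the smallest possible p is 0.333, and all adjusted p over the 8 classes were 1 (Benjamini-Hochberg). The HSPA8 spread is set by replicate 2, in which 25 of 38 single-list regions lay on snoRNA genes, and without that list the protein-coding difference turned to -19.0 points. Without HSPA1A replicate 2 the intergenic difference was -1.18 points, and without HSPA1A replicate 1 the other non-coding difference was -1.54 points. With so few lists a bait, the permutation test could not decide whether a class share follows the bait.

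Members on protein-coding genes ran along the gene's own strand in replicate 1 and on either strand in replicate 2. The gene's strand was known for 324 of the 390 replicate 1 members and 120 of the 152 replicate 2 members. In replicate 1, 261 of 324 (80.6%, Wilson interval 75.9 to 84.5%) lay on the gene's strand. In replicate 2 it was 53 of 120 (44.2%, 35.6 to 53.1%). Shared regions of the 2 lists lay in sense at 55.3% (n = 141) and 53.9% (n = 128). Of the regions found with HSPA8 replicate 1 alone, 486 of 530 (91.7%) lay in sense, and 2 of 5 of those found with its replicate 2 alone. The sense share was thus high in the single-list regions of both lists numbered 1.

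The difference between the HSPA1A lists was present both up to and above a score of 5. In replicate 1 the sense share was 82.8% at scores up to 5 and 75% above 5, and in replicate 2 48.6% and 42.2%. At scores of 10 or more, few members were left, with 1 of 3 in sense in replicate 1 and 9 of 20 in replicate 2. Where only peaks at or above their list's median score were used to decide what is shared, the regions in a list alone were mostly other ones: of those on protein-coding genes with a known strand, 3 of 14 in replicate 1 and 11 of 43 in replicate 2 overlapped a member. Their sense shares were 57.1% in replicate 1 (8 of 14, interval 32.6 to 78.6%) and 58.1% in replicate 2 (25 of 43). With equal numbers of peaks they were 58.3% (7 of 12) and 53.1% (26 of 49), of which 3 and 31 overlapped a member. Other non-coding genes with a known strand were few, at 32 of 43 in sense in replicate 1 (74.4%) and 6 of 23 in replicate 2 (26.1%).

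**Figure D3:**
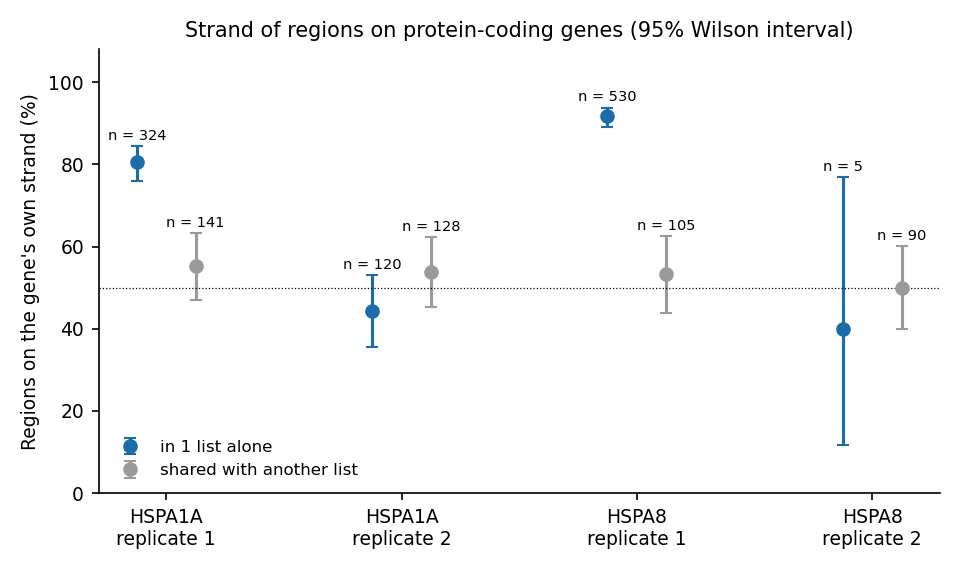
Share of regions on protein-coding genes that lie on the gene's own strand (y axis, %) for each of the 4 lists (x axis), with single-list regions in blue, shared regions in grey, 95% Wilson intervals as lines and n the regions with a known strand. HSPA1A replicate 1 (80.6%) and HSPA8 replicate 1 (91.7%) stand above the dotted line at 50%, and HSPA1A replicate 2 is at 44.2%.

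The protein-coding genes that held members were long against the gene table as a whole. Their median length was 91.0 kb for the 353 genes of replicate 1 and 125 kb for the 149 genes of replicate 2, against 24.1 kb for all 20037 protein-coding genes of the table. With each gene weighted by its length, as for places spread evenly along genes, the median over all protein-coding genes was 172 kb. This is above the medians of both lists. Genes of shared regions had medians of 119 and 137 kb. Genes over 1000 kb numbered 8 of 353 (2.27%) in replicate 1 and 10 of 149 (6.71%) in replicate 2. They were 0.344% of all protein-coding genes, and 5.3% and 6.34% of the genes of shared regions.

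**Figure D4:**
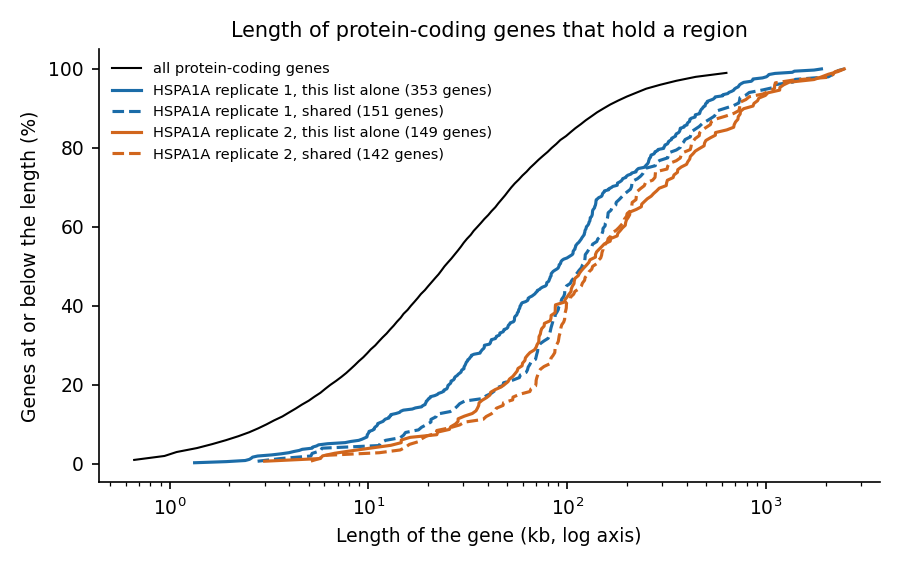
Cumulative share (y axis, %) of protein-coding genes at or below a length (x axis, kb, log scale) for genes that hold single-list (solid) or shared (dashed) regions of HSPA1A replicate 1 (blue) and replicate 2 (orange), and for all protein-coding genes up to the 99th percentile (black). All 4 coloured curves lie to the right of the black one, with medians of 91.0 and 125 kb for the single-list genes against 24.1 kb.

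The highest-scoring members of replicate 2 were spread over genes with no member in common with replicate 1 apart from NKAIN2. The highest lay in ABCG1, a cholesterol transporter (chr21:42295331-42295376, plus strand), with a score of 24. It was followed by an intergenic region (chr2:107605726-107605778) and a region in MSRA, a methionine sulfoxide reductase, both with 23. Then came intergenic regions on chromosome 11 (22) and chromosome 6 (21). NKAIN2, a partner of the sodium pump, had 20, and PIP4K2A, a phosphoinositide kinase, LOC105376595, PPP4R1L and an intergenic region on the Y chromosome had 19 each. The regions on NKAIN2 and PIP4K2A lay antisense, and the strand of ABCG1, MSRA, LOC105376595 and PPP4R1L was not known. These 10 regions were 44 to 55 bp wide. Of the protein-coding members of replicate 2, 24 of 152 (15.8%) scored 10 or more, against 4 of 390 (1.03%) in replicate 1.

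In replicate 1 the highest scores fell mostly on non-coding genes. An intergenic region (chr1:228608358-228608405, minus strand) and SNORA81 had 16 each. Regions with a score of 13 included SNORD76, ALLC (allantoicase), the 7SK pseudogene RN7SKP224, a pair of regions on XIST and an intergenic region on the X chromosome. The ALLC region lay on the strand opposite to the gene. MTRNR2L8, a nuclear copy of mitochondrial 16S rRNA sequence, had 12.

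Most genes held a single member, and genes with 2 or more were fewer in replicate 2, which has fewer members. In replicate 1, 588 genes held 1 member, 33 held 2 and 17 held 3 or more. In replicate 2, 239 genes held 1, and LOC107985792, PRKG1, PTPRD, RN7SKP250 and TIAM1 held 2 each. XIST, the long non-coding RNA that coats the inactive X chromosome, held 25 replicate 1 members with scores of 4 to 13, all on the XIST strand (minus). The first replicate of HSPA1A listed 73 peaks on XIST and that of HSPA8 listed 74, against 1 and 0 for the second replicates. The other XIST peaks of HSPA1A replicate 1 lay in shared regions.

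MALAT1, an abundant nuclear long non-coding RNA, held 7 replicate 1 members with scores of 5 to 9. They are assigned to the antisense gene TALAM1 by the rule of the shortest gene, but all 7 lay on the plus strand, which is that of MALAT1. The MALAT1 gene carried 10 peaks in the first HSPA1A list, 4 in the first HSPA8 list and 1 in each second list. DLG1, a membrane scaffold protein, held 6 members with scores of 1 to 4 and no peak in another list. These touch end to end and form 1 stretch of 230 bp (chr3:197132602-197132831, minus strand, the gene's own), so they are 6 members by the rule and 1 place on the gene. In all, 12 replicate 1 members and 2 replicate 2 members touched another member of their list.

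HSPA1A, the gene of the bait itself, and its near-identical neighbour HSPA1B held 4 members each in replicate 1. All 8 lay in sense, at matching positions in the 2 genes, and scored 5 to 8. On HSPA1A they spanned chr6:31815840-31816704 and were 27 to 130 bp wide. Together the genes carried 8 peaks in the list of HSPA1A replicate 1 and 3 in that of HSPA8 replicate 1, and none in either list numbered 2. Reads of the 2 genes cannot be told apart by sequence where they are identical, and RNA of the tagged HSPA1A transgene cannot be told apart from RNA of the gene.

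The other genes with 3 or more replicate 1 members were of several kinds. The read-through genes POLR2J2-UPK3BL1 and POLR2J3-UPK3BL2, which are copies of each other, held 4 each with the same scores of 6 to 7. ERO1A, the oxidase that forms disulfide bonds in the endoplasmic reticulum, and PRR14L held 3 each, all in sense, and neither had a peak in another list. WDR27 held 3, of which 1 was antisense. CYKILR, MIR663AHG, the mitochondrial gene ND5, RNA28SP and the ribosomal repeat genes LOC110467533, LOC110467534 and LOC110467536 also held 3 each.

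Lists of genes set up for this tissue and assay were met by few members, all of replicate 1. Over all protein-coding genes of the table, 1.76% held a replicate 1 member and 0.744% a replicate 2 member, and counts near those shares are no result about a list. Of 86 ribosomal protein genes 5 held members (RPL17, RPL37, RPL37A, RPL41 and RPS2, with RPS2 at 2), scores 4 to 8. Any peak at all lay on 6 ribosomal protein genes for the first replicate of HSPA1A and on 17 for that of HSPA8, and on 0 for the second replicate of either bait. Of 88 chaperone genes 4 held members: HSPA1A, HSPA1B, CCT3, a subunit of the cytosolic chaperonin, and DNAJB6, a J-domain partner of HSP70, whose region was antisense. Of a list of 33 long non-coding RNA genes made up of the SNHG genes, GAS5, MALAT1, NEAT1 and KCNQ1OT1, GAS5 and SNHG17, both hosts of snoRNAs, held 1 each. XIST is not on that list, and the regions on MALAT1 are counted under TALAM1. Of 153 translation factors EIF2B3 held 1. No member lay on any of 78 histone genes or 30 genes of Pol III subunits and factors. Replicate 2 members met none of these genes.

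Among Pol III genes, tRNA genes made up most of the members. In replicate 1 they were 28 tRNA genes with 1 region each, scores 5 to 10 and a median width of 41.5 bp, and 7 snaR genes with regions of 37 bp and scores of 7 to 8. The highest scores were 10 on TRN-GTT1-1 (asparagine) and TRK-CTT3-1 (lysine), 9 on TRN-GTT6-1, and 8 on TRA-TGC3-1, TRA-TGC3-2 and TRA-CGC2-1 (alanine). None of the 28 genes had a peak in another list, but 25 belong to a group of the same amino acid and anticodon with a peak in another list on a different gene. Over all peaks, 174 tRNA genes were listed for HSPA1A replicate 1, 153 for its replicate 2, 175 for HSPA8 replicate 1 and 57 for its replicate 2. snaR genes are close copies of each other, and 19, 10, 19 and 0 of them carried a peak in the 4 lists. How the authors placed reads that match several copies is not given in the sources used here, and whether that decides which copy is listed was not tested.

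Replicate 2 had 8 Pol III members, on RNU6ATAC and 7 tRNA genes with scores of 4 to 6, the highest on TRR-ACG2-4 (arginine). RNU6ATAC, the gene of the U6atac RNA of the minor spliceosome, had a region of 23 bp (chr9:134164456-134164478, minus strand) with a score of 9. Its pseudogenes RNU6ATAC2P, RNU6ATAC5P, RNU6ATAC26P, RNU6ATAC28P and RNU6ATAC41P each had a region of the same 23 bp with a score of 8. These 6 peaks are all that the U6atac family has in any list: none were in the other HSPA1A list or with HSPA8. RPL17 shows the same form in replicate 1, with 6 regions of 31 bp, all of score 5, on RPL17 and 5 of its pseudogenes, and no peak of this family in another list. Whether reads of 1 RNA were placed on several copies was not tested, and these pseudogenes were picked for naming after their values had been seen.

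Other pseudogene families of small RNAs held members of both lists or of replicate 1 alone. U6 pseudogenes held 25 replicate 1 members (scores 4 to 7) and 0 replicate 2 members, although 52 U6 pseudogenes carried a peak in replicate 2. 7SL pseudogenes held 7 and 0, and U1 pseudogenes 14 and 4. As a share of the members, 7SK pseudogenes were 1.55% and 1.68% (14 and 7 regions), 5S pseudogenes 0.552% and 0.481% (5 and 2), and U2 pseudogenes were 0.552% and 0.962% (5 and 4). Long non-coding RNA genes held 90 of the 265 other non-coding members in replicate 1 and 55 of 87 in replicate 2.

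snoRNA genes, many of whose products guide modification of ribosomal RNA, held 29 replicate 1 members and 1 replicate 2 member, on SNORD3D with a score of 4. The replicate 1 set had 14 H/ACA genes (SNORA, median width 75 bp) and 14 C/D genes (SNORD, median width 46 bp). The highest scores were 16 on SNORA81, 13 on SNORD76, 11 on SNORD32A and 10 on SNORD37, SNORA7A and SNORA69. H/ACA genes with any peak numbered 22 for HSPA1A replicate 1 and 14 for HSPA8 replicate 2, against 3 for HSPA1A replicate 2 and 2 for HSPA8 replicate 1. For these genes the lists of unlike number were thus the fuller ones.

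The mitochondrial genome held 12 replicate 1 members and 0 of 416 replicate 2 members, a count that at a limit of 3 regions allows a share of up to 0.721%. Of the 12, 10 lay on the minus strand of the reference, on ND3, ND4, ND4L, ND5, COX3 and TRNS2, and on ND6. ND6 is the only mitochondrial protein-coding gene encoded on that strand, so the regions on the other protein-coding genes lie opposite to the listed gene. Their scores were 5 to 11 and the highest were on ND3 (chrMT:10125-10224, score 11, and chrMT:10225-10295, score 10). Over all mitochondrial peaks of that list, 24 were on the minus strand and 105 on the plus strand. Among the 14 replicate 1 members that overlapped a peak of another list on the opposite strand, 11 were mitochondrial.

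A part of the replicate 1 members lay close to the other lists. On the same strand, 182 of 906 (20.1%, Wilson interval 17.6 to 22.8%) lay within 1000 bp of a peak of another list, against 13 of 416 in replicate 2 (3.12%, 1.84 to 5.27%). Within 50 bp it was 60 (6.62%) and 9 (2.16%). The median gap was 307 kb in replicate 1 and 810 kb in replicate 2. Of the 182, 168 were within that distance of HSPA8 replicate 1, 84 of HSPA1A replicate 2 and 77 of HSPA8 replicate 2. Other non-coding genes held 99 of the 182. Of 390 protein-coding members of replicate 1, 23 were this close, and of the 152 of replicate 2 none was. Members on a gene with a peak of another list anywhere along it were 203 of 738 in replicate 1 (27.5%) and 43 of 249 in replicate 2 (17.3%). Both contrasts depended on the overlap rule. With a reciprocal overlap of 50%, under which peaks that overlap by less also count as single, the shares within 1000 bp were 30% and 28.2% and those on a gene with another peak 37.6% and 45.1%. With equal numbers of peaks they were 38.8% and 3.97%, and 42.0% and 7.14%.

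**Figure D5:**
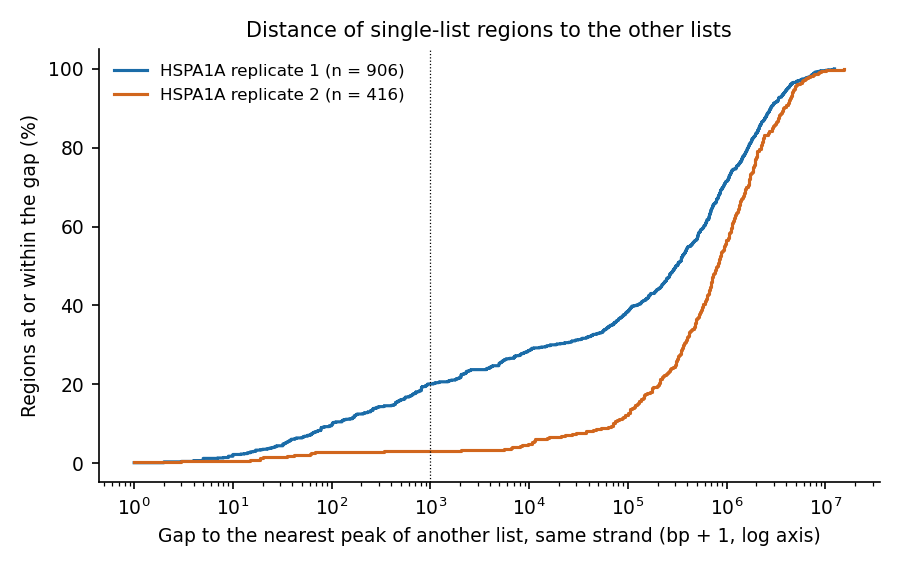
Cumulative share (y axis, %) of single-list regions by the gap to the nearest peak of another list on the same strand (x axis, bp + 1, log scale) for HSPA1A replicate 1 (blue) and replicate 2 (orange), with a dotted line at 1000 bp. At that line the curves are at 20.1% and 3.12%.

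Next to the threshold of 1 shared base, the members just inside were mostly on repeated or abundant RNAs. In replicate 1 the nearest included a U6 pseudogene, RNU6-34P, that touched a peak of another list (gap 0 bp, score 5), ND4L at 1 bp, SNORD50A at 2 bp and PMF1 at 3 bp. Just outside were TRNC with 2 bp shared, XIST with 4, ND5 with 8, RNA28SN3 with 10 and RTEL1-TNFRSF6B with 11. In replicate 2 the nearest inside were RNA45SN1 (gap 0 bp), RNVU1-2 (2 bp), RNA5SP469 (14 bp) and a pair of intergenic regions on chromosome 2 (18 bp each). Just outside were RNU5A-1 with 11 bp shared, RNA45SN2 with 15, and NSRP1, WIPF2 and RNA28SN2 with 17 each.

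Of the 638 genes with a replicate 1 member and the 244 with a replicate 2 member, 14 held members of both lists. Of the 353 protein-coding genes with a replicate 1 member, 12 also held a replicate 2 member. Over all 20037 protein-coding genes it was 149 (0.744%). Whether gene length accounts for the genes in common was not tested. On the U2 pseudogene RNU2-39P the 2 regions lay 24 bp apart on the same strand (scores 9 and 7), and on the 7SK pseudogene RN7SKP124 41 bp apart (9 and 6). On CCNT1, cyclin T1 of the kinase that 7SK RNA holds inactive, they lay at the same place on opposite strands: chr12:48712586-48712612 on the minus strand, in sense, in replicate 1 (score 5) and chr12:48712579-48712618 on the plus strand in replicate 2 (score 6). In the other protein-coding genes the regions lay 4.78 to 1342 kb apart, as in CALN1 (128 kb), a calcium-binding protein, EBF1 (259 kb), MARCHF1 (322 kb), LRP1B (387 kb), NKAIN2 (143 kb), SEC14L1 (54.3 kb) and ROBO2 (1342 kb). Of the 12 protein-coding genes in common, 11 had a known strand, and on 7 of them the replicate 1 region was sense and every replicate 2 region antisense. Over all members on protein-coding genes with a known strand, 80.6% lay in sense in replicate 1 and 44.2% in replicate 2. The count is therefore not read as a result about the genes in common.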

How the data were processed

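The deposited files hold, for each replicate of HSPA1A and HSPA8, peak positions, strand and a whole-number score per peak given by the authors. The submitters' processing notes name Trim Galore 0.4.4, FastQC, STAR 2.6.0b, deepTools and GRCh38. The peak caller, its threshold and the meaning of the score are not given in the sources used here, and read depth is unknown.

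Peaks on 25 chromosomes were merged. This leaves out 353 of 3131 peaks of HSPA8 replicate 1 and 617 of 2040 of HSPA8 replicate 2, on scaffolds. The HSPA1A lists kept all of their 2744 and 2059 peaks, so the loss differs by bait. The HSPA8 counts, the 1423 peaks of the equal-number setting and the bait differences all come after it. Whether it changes them was not tested. The numbers of regions limit the precision. Genes were those of the RefSeq table for GRCh38.p14 (59716 used, 29079 with a strand taken from the RefSeq sequence tables). Where a region met several genes, a Pol III gene came first, then mitochondrial, rRNA, snRNA and snoRNA genes, then other non-coding genes and last protein-coding ones, and within a class the shortest gene. A region with no gene was intergenic. Exons are not in the table, so exon and intron were not assigned. Positions are 1-based.

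Shares have 95% Wilson intervals. An exact permutation test over 6 label orders set the baits against each other. Replicate numbers were not taken to pair the lists. Named genes are, per list, the 10 highest scores, genes with 3 or more members, up to 10 genes with members of both lists, up to 10 per small-RNA class, members of gene lists and the 5 regions nearest the threshold on each side, and others are marked. A gene that the rule would name is not reported here. The members and lists were chosen with earlier results of these data known. Alternatives were merging within 50 bp, either strand, reciprocal overlap, stricter scores, equal numbers of peaks, each list left out, no rRNA or mitochondrial regions, other gene assignment, base pairs and a replicate block. Sense shares, distances, genes in other lists and score medians under them were added after seeing the data. The scripts (scipy 1.17.1, pandas 2.3.3, numpy 2.4.6 and matplotlib 3.10.9 under Python 3.11.15) were tested on simulated lists.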

Additional observations from a re-analysis of the deposited data

How the results depend on the processing

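The numbers of single-list regions, 906 and 416, fell to 143 and 141 with peaks at or above their list's median score and to 116 and 151 with equal numbers of peaks. With a list left out they ranged from 933 to 1355 in replicate 1 and from 456 to 515 in replicate 2. Where the score or number of peaks is restricted, both fewer peaks and fewer possible counterparts enter.

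The bait differences reversed in 6 of 56 alternatives. With a list left out, the protein-coding difference (3.05 points) ranged from -19.0 to 18.5, the intergenic one (20.8) from -1.18 to 25.0 and the other non-coding one (6.13) from -1.54 to 11.4. The protein-coding difference was -2.38 points with genes on the matching strand, and the Pol III difference (1.54; 0.198 to 4.92 with lists left out) was -4.76 with the stricter score and -1.44 with equal numbers. The cause was not tested. The replicate block pairs the lists by their number. Whether that number stands for more than a name was not tested. The block leaves the mean differences as they are and cannot give a p below 0.5. It gave 0.5 for intergenic. Over the merged regions the deviations of same-numbered lists had a correlation of 0.0589. Yet 385 regions were in both lists numbered 1 alone and 70 in both lists numbered 2 alone, against 25 and 35 in lists of different bait and number. Both HSPA1A lists alone shared 96 and both HSPA8 lists alone 2.

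Single-list against shared regions kept its direction in all 52 alternatives. The protein-coding excess (26.6 points) was 15.4 with the stricter score, 13.9 with equal numbers, 20.1 on the matching strand, 33.6 by base pairs, and 21.1 to 29.4 with lists left out. The intergenic excess (14.3) was 23.2 on the matching strand and 4.12 to 20.0 with lists left out. The other non-coding deficit (-12.2) was -15.6 when merged within 50 bp, -7.99 with reciprocal overlap, -3.12 with the stricter score, -0.512 with equal numbers, -17.6 without rRNA and mitochondrial regions, -14.6 on the matching strand, -2.11 by base pairs, and -5.06 to -12.8 with lists left out. The Pol III deficit (-11.8) was -15.9, -6.66, -7.54 and -6.95 under the first 4 of these, and -6.17 to -12.0 with lists left out. The sense shares (80.6% and 44.2%) were 57.1% and 58.1% with the stricter score and 58.3% in replicate 1 with equal numbers. The distance share of replicate 2 (3.12%) was 0.739% when merged within 50 bp, 6.38% with the stricter score and 2.44% to 6.13% otherwise, apart from the reciprocal overlap.

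The absence of a region from a list is not evidence that the RNA was unbound there, since depth and the calling threshold of each list are unknown.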

Other observations

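The chromosomes of the members differed from those of the shared regions. Chromosome 21, which carries ribosomal repeats, held 15 of 906 replicate 1 members (1.66%) and 10 of 416 replicate 2 members (2.40%), against 12.9% and 16.2% of shared regions. The Y chromosome held 5 members in replicate 1 (0.552%) and 13 in replicate 2 (3.12%), against 0.935% and 1.11% of shared regions. Of the 13, 4 lay on DAZ1, DAZ2, DAZ3 and DAZ4, near-identical genes of germ cells. They were regions of 23 bp in sense with scores of 14 to 16. Whether the reads listed on the DAZ genes, or elsewhere on the Y chromosome, came from there was not tested. These genes were picked after their values had been seen. All peaks on DAZ genes numbered 7 for HSPA1A replicate 2, 3 for each replicate 1 and 0 for HSPA8 replicate 2.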
